A study of Homo sapiens with 6 samples.

Results

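The protein components of the cytosolic ribosome were followed in HCT116 cells, a human colorectal cancer cell line, after transfection with miR-8485 mimics. The genes were taken by name from the table of gene expression: protein-coding genes named RPL or RPS with a number, together with RPSA, RPLP0, RPLP1, RPLP2 and the paralogs that carry a letter or an L, and without RPS27L. This rule found 83 of the 58735 genes listed, of which 19951 were protein-coding, with 50 genes of the large subunit and 33 of the small subunit. RNA-seq had been performed on 6 libraries, 3 of cells with control transfection (CTR, genotype given as WT) and 3 of cells that received miR-8485 mimics at 50 nM. The supplementary methods give 48 h between transfection and collection unless another time is named, and give neither a sequence nor a dose for the control. The supplementary methods describe the replicates as independent biological ones.

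The mimic is a synthetic RNA whose sequence the supplementary methods give. It is shown because a miRNA finds its targets mainly through bases 2 to 8, the seed, which is in capitals.
miR-8485 mimic: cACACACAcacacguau

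Cytosolic ribosomes are built from ribosomal RNA and a fixed set of proteins, most of them present once in each ribosome, so cells make the ribosomal proteins in nearly equal numbers. Their mRNAs are short and abundant, and most begin with a C followed by a run of pyrimidines, the 5′ terminal oligopyrimidine (TOP) motif, through which mTOR and LARP1 control their translation and stability. Proliferating cells, colorectal cancer cells included, spend a large part of their transcription on ribosomes.

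The values are FPKM, fragments scaled to the gene length listed with them and to the size of the library. Levels of different genes can be compared only as far as the listed length matches the mRNA. For RPS29 the listed length was 9845 bases, while the UTRs of its canonical transcript have 34 and 90 bases. The libraries held 17473874 to 18480047 fragments on listed genes. CTR replicate 1 stood apart from the other CTR libraries. The chi-square per gene between libraries, near 1 under sampling noise alone, reached 12.5 within a group and was 75.5 to 86.7 between groups. Epithelial genes were present in all 6 libraries (EPCAM 127 to 148 FPKM, CDH1 18.7 to 20.4 FPKM, KRT8 543 to 873 FPKM, KRT18 286 to 609 FPKM), the leukocyte gene PTPRC had at most 0.00603 FPKM, and the collagen gene COL1A1 had 4.05 to 6.40 FPKM. CDX1 and VIL1, which mark differentiated intestinal epithelium, did not exceed 0.0314 and 0.0639 FPKM in any library.

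Transfection of miR-8485 mimics was accompanied by higher levels of nearly the whole set of ribosomal protein mRNAs. Of the 83 genes, 79 had a mean FPKM of at least 1 and were tested, and 72 of these were upregulated while 0 were downregulated (limma on log2(FPKM + 0.1), Benjamini-Hochberg adjusted p under 0.05 over the 12349 genes tested). Among all genes tested, 29.1% were called higher and 30.5% lower. No member was lower at an unadjusted p under 0.05 (0 of 79), and voom on the fragments recovered from the FPKM values called 73 higher and 0 lower. The median log2 fold change of the 79 genes was 0.46, with quartiles of 0.41 and 0.58, against -0.0041 over all genes tested. The rise was moderate, since no gene reached a log2 fold change of 1 (0 of 79) and the largest was 0.80. Between 0.30 and 0.70 lay 64 of the 79, yet the genes differed, with an SD of 0.17 across them beside a median SE of 0.067. In 73 of the 79 genes all 3 miR-8485 libraries lay above all 3 CTR libraries, which held for 32.5% of all genes tested. Because each FPKM is relative to its library's total, these values do not measure the amount of mRNA per cell, and a change in every cell cannot be told apart from one in a fraction of the cells.

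**Figure D1:**
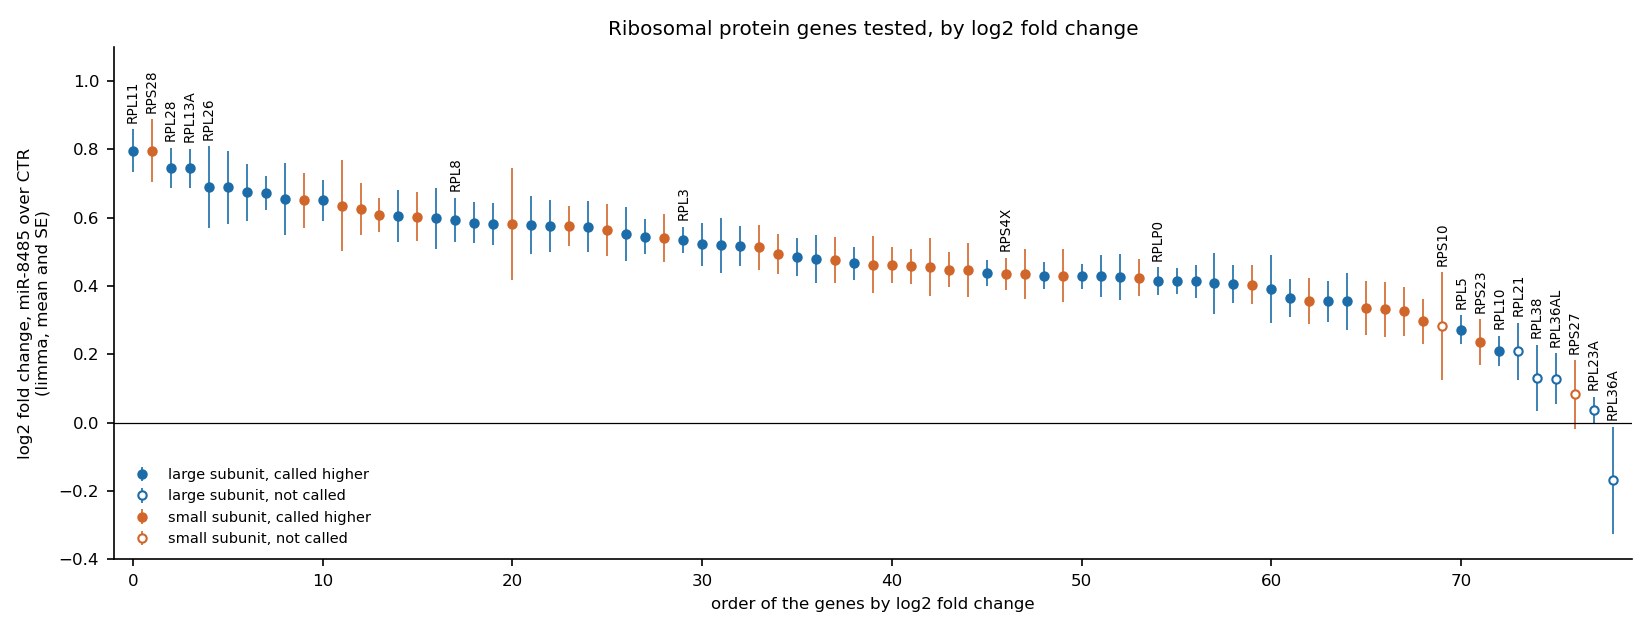
Log2 fold change (y axis) of the 79 ribosomal protein genes tested, in descending order along the x axis, with blue points for the large and orange points for the small subunit, bars for 1 standard error of the limma fit, open points for the 7 genes not called, and names beside some of the genes the text describes. Genes of both subunits were mixed along the whole order from RPL11 at 0.80 to RPS27 at 0.08, and RPL36A at -0.17 was the one value below 0.

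The share of sequencing taken by these genes showed the same difference library by library. Ribosomal protein genes held 8.11%, 7.10% and 7.23% of the fragments on listed genes in CTR and 10.8%, 10.5% and 10.3% in miR-8485, or 7.48 ± 0.55% against 10.5 ± 0.23% (SD, n = 3 each). The groups did not overlap, and the gap between the highest CTR and the lowest miR-8485 library was wider than the range within either group. An exact two-sided permutation test of 3 against 3 libraries cannot give a p below 0.1. CTR replicate 1 had the highest CTR value in 73 of the 79 genes and lay nearest to the miR-8485 libraries, and its part in the result was measured by leaving it out: 75 genes were then called higher, with a median log2 fold change of 0.53. Genes of the mitochondrial genome, counted without regard to gene type, took 7.94% to 10.2% of the fragments in CTR and 10.6% to 11.3% in miR-8485, and were lowest in the same CTR replicate 1. Whether these shares bear on the ribosomal protein genes was not tested.

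**Figure D2:**
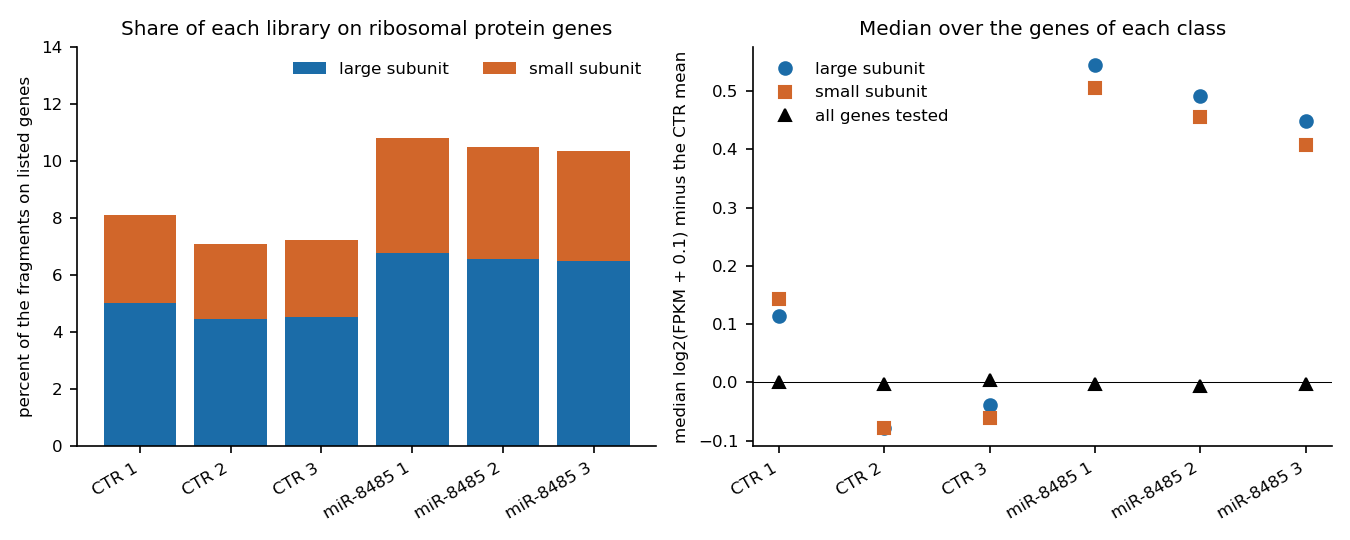
Left, percent of the fragments on listed genes that fell on large (blue) and small (orange) subunit genes in each library, stacked from 0. Right, for each library the median over the genes of a class of log2(FPKM + 0.1) minus the mean of the 3 CTR libraries, with black triangles for all genes tested. Both subunits lay at 0.41 to 0.54 in the miR-8485 libraries, while all genes tested stayed within 0.01 of 0.

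The genes with the largest rise, among those called and without overlap between the groups, came from both subunits. RPL11, which joins RPL5 and 5S rRNA in the 5S RNP and can bind MDM2, lies at chr1:23691742-23696835 on the plus strand (hg38) and had 251, 217 and 223 FPKM in CTR and 408, 404 and 385 FPKM in miR-8485. All miR-8485 values exceeded all CTR values, with log2 fold change 0.80 ± 0.06 (SE), adjusted p = 3.96e-05, and leaving out each library in turn gave log2 fold changes of 0.75 to 0.86. RPS28, a small protein of the 40S head, lies at chr19:8321158-8323340 on the plus strand and had 69.1, 59.7 and 54.3 FPKM in CTR and 110.4, 109 and 97.4 FPKM in miR-8485, with log2 fold change 0.80 ± 0.09 (SE), adjusted p = 2.59e-04. RPL28, a protein of the large subunit at chr19:55385345-55403250 on the plus strand, had 115, 103 and 103 FPKM in CTR and 188, 179 and 171 FPKM in miR-8485, with log2 fold change 0.75 ± 0.06 (SE), adjusted p = 4.07e-05. In both genes the groups were again separate and CTR replicate 1 was the highest CTR library.

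RPL13A, known besides its place in the large subunit from the GAIT complex that silences inflammatory mRNAs, was among the most abundant of the set and had 1052, 927 and 949 FPKM in CTR and 1665, 1623 and 1612 FPKM in miR-8485. All 3 miR-8485 values were well above CTR, with log2 fold change 0.74 ± 0.06 (SE), adjusted p = 3.81e-05. RPL26 and RPL35 both encode proteins near the exit of the tunnel through which the nascent peptide leaves. RPL26 had 18.96, 14.4 and 14.3 FPKM in CTR and 26.6, 27.1 and 22.9 FPKM in miR-8485, with log2 fold change 0.69 ± 0.12 (SE), adjusted p = 0.00189. RPL35 had 423, 332 and 350.1 FPKM in CTR and 664, 572 and 543 FPKM in miR-8485, with log2 fold change 0.69 ± 0.11 (SE), adjusted p = 0.00108. The libraries within a group were less alike for RPL26 and RPL35 than for RPL13A, yet the groups stayed apart. RPL41, which encodes the shortest ribosomal protein, had 927, 754 and 759 FPKM in CTR and 1322, 1306 and 1249 FPKM in miR-8485, with log2 fold change 0.67 ± 0.08 (SE), adjusted p = 3.54e-04. For RPL41 the CTR libraries spread more widely than the miR-8485 libraries. Under quantile normalization, where the median of the 79 genes was 0.36 in place of 0.46, RPL13A changed by 0.36 and RPL41 by 0.40, and both were still called higher.

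The 5 smallest rises that passed the test were found in RPL10, RPS23, RPL5, RPS16 and RPS3A. RPL10, a late-joining protein of the large subunit that lies close to the P site, had 272, 252 and 266 FPKM in CTR and 312, 301 and 300.4 FPKM in miR-8485, with log2 fold change 0.21 ± 0.04 (SE), adjusted p = 0.00483. RPS23, which reaches the decoding centre, had 65.7, 58.2 and 68.3 FPKM in CTR and 78.8, 72.3 and 75.2 FPKM in miR-8485, with log2 fold change 0.24 ± 0.07 (SE), adjusted p = 0.0178. The groups of RPS23 were separated by a narrow margin, and without miR-8485 replicate 1 its log2 fold change was 0.20 with an adjusted p of 0.0614. RPL5, the partner of RPL11 in the 5S RNP, had 353, 329.5 and 338 FPKM in CTR and 409, 416 and 406 FPKM in miR-8485, with log2 fold change 0.27 ± 0.04 (SE), adjusted p = 0.00107. Both 5S RNP genes thus rose, RPL11 with 0.80 standing at the top of the order and RPL5 with 0.27 near its end. RPS16, whose tail contacts the P site, had 353, 302 and 305 FPKM in CTR and 404, 385 and 388 FPKM in miR-8485, and RPS3A, at the mRNA exit of the small subunit, had 580.5, 488 and 488 FPKM in CTR and 644, 644 and 657 FPKM in miR-8485. The log2 fold changes of these last genes were 0.30, adjusted p = 0.00597 and 0.33, adjusted p = 0.00575. With FPKM rescaled to TPM, a scaling that shifted the median of all genes tested by -0.12, RPL10, RPS23, RPS16 and RPS3A no longer passed, with log2 fold changes of 0.09, 0.12, 0.18 and 0.21 (adjusted p = 0.191, 0.203, 0.0844 and 0.0749). RPL5 was then at 0.16 (adjusted p = 0.0479), and under quantile normalization at 0.17.

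The 7 tested members that did not pass were RPL23A, RPS27, RPL38, RPL21, RPL36AL, RPL36A and RPS10. RPL23A, at the tunnel exit where the signal recognition particle docks, had 154, 154 and 161 FPKM in CTR and 162, 160.3 and 160.2 FPKM in miR-8485. All 6 values lay close together and the groups overlapped, with log2 fold change 0.04 ± 0.04 (SE), adjusted p = 0.426 and a 95% interval of -0.05 to 0.13. RPS27, a zinc finger protein of the small subunit, had 411, 317 and 342 FPKM in CTR and 409, 368 and 351 FPKM in miR-8485. CTR replicate 1 was its highest library, and the change was 0.08, adjusted p = 0.506 (95% interval -0.15 to 0.32). RPL38, known for its part in translating Hox mRNAs in mouse embryos, had 82.5, 65.6 and 70.1 FPKM in CTR and 85.6, 81.2 and 71.6 FPKM in miR-8485, a change of 0.13, adjusted p = 0.282 (95% interval -0.10 to 0.36). RPL21 had 279, 239 and 221 FPKM in CTR and 289.7, 287 and 273 FPKM in miR-8485, a change of 0.21, adjusted p = 0.0633 (95% interval 0.01 to 0.40), and was the only 1 of the 7 with an unadjusted p under 0.05. RPL38, RPL21 and RPL36AL overlapped between the groups through CTR replicate 1, and without it they were called higher with log2 fold changes of 0.22, 0.30 and 0.21 (adjusted p = 0.0467, 0.00192 and 0.00589). RPL21 was also called with a filter at 5 FPKM, with the GC content trend removed, with voom and with the replicate block, and RPL36AL with the GC content trend removed. With the gene length trend removed the RPL36AL log2 fold change was -0.12 (adjusted p = 0.0943), so its direction was not settled. RPL23A and RPS27 were not called in any of the alternatives, where their log2 fold changes ran from -0.08 to 0.06 and from -0.15 to 0.19.

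RPS10 and RPL36A, the other members not called, were listed at levels far below the rest of the set. RPS10, a protein of the 40S head, had 1.20, 1.41 and 1.03 FPKM in CTR and 1.56, 1.43 and 1.47 FPKM in miR-8485, with log2 fold change 0.28 ± 0.16 (SE), adjusted p = 0.16. RPL36A, whose protein lines the E site, had 1.32, 1.35 and 1.64 FPKM in CTR and 1.405, 1.24 and 1.15 FPKM in miR-8485, with log2 fold change -0.17 ± 0.16 (SE), adjusted p = 0.383. The miR-8485 values of RPS10 all lay above CTR by a small margin, and those of RPL36A overlapped CTR. Only 44 to 66 fragments for RPS10 and 87 to 118 for RPL36A stood behind each value. Both genes overlap a listed readthrough gene on the same strand, RPS10-NUDT3 and RPL36A-HNRNPH2, which held at most 2 and 0 fragments in any library. A fragment that falls on exons of both genes of such a pair cannot be assigned to either, and how the authors' count treated it is not given in the sources used here, so the levels of RPS10 and RPL36A are uncertain. With an edge set after the values were seen, 7 members had a CTR mean under 20 FPKM, RPL17, RPL26, RPS15A and RPS29 among them beside RPS10 and RPL36A, and all 7 overlap another listed gene on the same strand, against 12 of the 72 others. The called members of that group rose by log2 fold changes of 0.41 to 0.69, and RPL17, with 8.61, 7.71 and 7.48 FPKM in CTR and 10.9, 9.37 and 11.5 FPKM in miR-8485, overlaps a readthrough gene as well. RPS29 and RPS15A have listed lengths of 9845 and 6679 bases, beside a median of 3002 for the tested members. The part of the listed length in these low levels was not tested.

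The 4 members below the filter on low values are tissue-restricted paralogs. RPL3L, whose product replaces RPL3 in heart and skeletal muscle, had 0.463, 0.401 and 0.18 FPKM in CTR and 0.161, 0.14 and 0.0952 FPKM in miR-8485, from 9 to 23 fragments per library in CTR and 5 to 8 in miR-8485. In the fit of all genes above 0 its log2 fold change was -0.90 ± 0.39 (SE), adjusted p = 0.181. RPL39L and RPL10L, known from the testis, and RPS4Y2 of the Y chromosome were listed at 0 in all 6 libraries. EEF1G, a translation elongation factor gene that every cell uses, was also listed at 0 in all 6, so a listed 0 is not read as absence of the mRNA.

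Levels within the set differed far more than the changes. In CTR the 79 genes had a median of 249.6 FPKM, against 6.11 FPKM for all genes tested. RPS2, at 1511 ± 52.3 FPKM in CTR and 2304 ± 76.4 FPKM in miR-8485 (SD, n = 3 each), and RPS12, at 1234 ± 125 FPKM in CTR and 1818 ± 70.4 FPKM in miR-8485 (SD, n = 3 each), had the highest FPKM. This order depends on the listed gene length. RPS12, listed at 767 bases, had 16035 to 19060 fragments in the CTR libraries, and RPL13, listed at 6172 bases, had 49638 to 58739. The rise did not follow the order of FPKM, since the Spearman correlation across the 79 genes between CTR level and log2 fold change was 0.06 (Pearson's r 0.20). The genes share their libraries, so these values are descriptions. All 18 members with at least 500 FPKM in CTR were called higher with a median log2 fold change of 0.49, as were 41 of the 45 with 100 to 500 FPKM (median 0.46), 11 of the 12 with 10 to 100 FPKM (median 0.52) and 2 of the 4 under 10 FPKM. Of all members tested 91.1% were called higher, and of all genes tested 29.1%.

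The large and the small subunit were both higher in miR-8485. Among RPL and RPLP genes 42 of 47 tested were called higher (median log2 fold change 0.48), and among RPS and RPSA genes 30 of 32 (median 0.46), beside the 29.1% of all genes. The medians differed by 0.03, and by 0.078 with the gene length trend removed, and no test was made of this difference. Against the CTR mean, the median of the large subunit was 0.54, 0.49 and 0.45 in the miR-8485 libraries and that of the small subunit 0.51, 0.46 and 0.41, so the large subunit was slightly higher in each of the 3. In CTR the order was not the same, with 0.11, -0.08 and -0.04 for the large and 0.14, -0.08 and -0.06 for the small subunit.

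Groups of members by role gave similar medians, and no test was made between them. Of all members tested 91.1% were called higher, and of all genes tested 29.1%, which are the shares to set beside each group. The P stalk, which recruits the elongation factors, is formed by RPLP0, RPLP1 and RPLP2 on a base that includes RPL12, and all 4 genes rose. RPLP0 had 884, 880.5 and 874 FPKM in CTR and 1199, 1167 and 1152 FPKM in miR-8485, with log2 fold change 0.41 ± 0.04 (SE), adjusted p = 1.10e-04. RPLP1 had 454, 400.3 and 437 FPKM in CTR and 676, 641 and 619 FPKM in miR-8485, with log2 fold change 0.58 ± 0.06 (SE), adjusted p = 1.44e-04. In both genes every miR-8485 library lay above every CTR library. RPLP2 had 401, 312 and 339 FPKM in CTR and 504, 440.5 and 432 FPKM in miR-8485, with log2 fold change 0.39 ± 0.10 (SE), adjusted p = 0.0112. RPL12 had 556, 533 and 540.1 FPKM in CTR and 767, 774 and 710.1 FPKM in miR-8485, with log2 fold change 0.47 ± 0.05 (SE), adjusted p = 1.53e-04. The 3 CTR libraries of RPLP0 were nearly equal, while those of RPLP2 were spread with CTR replicate 1 on top, and in all 4 genes the groups were separate. With TPM the adjusted p of RPLP2 was 0.0559 (log2 fold change 0.28). Under quantile normalization RPLP0 and RPL12 changed by 0.17 and 0.21, still called higher.

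RPL3 and RPL8, whose proteins reach toward the peptidyl transferase centre as RPL10 does, had larger log2 fold changes than RPL10, a difference that was not tested. RPL3 had 561, 562 and 565 FPKM in CTR and 829.7, 809 and 808 FPKM in miR-8485, with log2 fold change 0.54 ± 0.04 (SE), adjusted p = 2.67e-05. RPL8 had 1122, 1011 and 1072 FPKM in CTR and 1739.5, 1574 and 1524 FPKM in miR-8485, with log2 fold change 0.59 ± 0.07 (SE), adjusted p = 2.09e-04. Under quantile normalization the RPL3 log2 fold change was 0.31 and the RPL8 log2 fold change 0.19 (adjusted p = 8.56e-04 and 0.0422). Among the 8 genes of the peptide tunnel and its exit 7 were called higher (median 0.49), and RPL23A was the exception. Of 14 genes of the 40S head 13 were called higher (median 0.49) and of 17 of the 40S body 16 (median 0.45), with RPS10 and RPS27 the ones not called. The counts by role and by snoRNA in this paragraph stand beside 91.1% of all members and 29.1% of all genes tested. The 18 genes mutated in Diamond-Blackfan anemia, a failure of red cell production caused by the loss of 1 ribosomal protein allele, included 16 called higher (median 0.48), from RPL5 at 0.27 to RPL11 at 0.80. The coordinates of 28 tested members hold a listed snoRNA gene, and 26 of these were called higher (median 0.48), against 46 of the 51 without one (median 0.46). RPL13A and RPL23A, which each hold 4 snoRNA genes, stood at opposite ends with 0.74 and 0.04.

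Paralogs were compared through the log2 ratio of their levels in each library, in the 6 pairs where both reached a mean of 1 FPKM. RPS4X and RPS4Y1, the X and Y copies of one small subunit protein, share 82.1% of their aligned coding bases. RPS4X had 474, 446 and 446 FPKM in CTR and 639, 608 and 601 FPKM in miR-8485, and RPS4Y1 had 135, 119 and 122 FPKM in CTR and 173, 162 and 163 FPKM in miR-8485. Both were called higher (0.44, adjusted p = 1.73e-04 and 0.40, adjusted p = 6.93e-04), and RPS4Y1 kept 21.6 ± 0.55% of the summed FPKM in CTR and 21.2 ± 0.17% in miR-8485 (SD, n = 3 each). The log2 ratio of the pair changed by -0.03, with overlapping groups (exact two-sided permutation p = 0.4).

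In the pair RPL36A and RPL36AL, 89.9% alike in coding bases, RPL36AL had 228, 195 and 190.1 FPKM in CTR and 226, 229.7 and 213 FPKM in miR-8485 (0.13, adjusted p = 0.173) and held 99.3 ± 0.14% of the summed FPKM in CTR, where the low listing of RPL36A described above enters. The other pairs set a member beside a paralog that the naming rule does not take. RPL22L1, which can replace RPL22, had 94.8, 85.1 and 80.8 FPKM in CTR and 162, 152 and 150 FPKM in miR-8485, more than RPL22 with 50.7, 42.8 and 45.1 FPKM in CTR and 64.2, 59.9 and 62.0 FPKM in miR-8485. RPL22L1 held 65.3 ± 1.19% of the pair in CTR and 71.4 ± 0.56% in miR-8485, and the log2 ratio of RPL22L1 over RPL22 rose by 0.41 without overlap between the groups (exact p = 0.1, the smallest that 3 against 3 libraries allow, 0.3 adjusted over the 6 pairs). RPS27L, a known p53 target, had 10.7, 9.16 and 8.48 FPKM in CTR and 13.9, 13.5 and 12.9 FPKM in miR-8485, a change of 0.51, adjusted p = 0.00167, beside RPS27, which was not called, and the log2 ratio of RPS27L over RPS27 was likewise higher in all 3 miR-8485 libraries, by 0.42 (exact p = 0.1, 0.3 adjusted).

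RPL26L1 had 19.96, 19.9 and 18.5 FPKM in CTR and 37.1, 36.5 and 34.1 FPKM in miR-8485, with log2 fold change 0.88 ± 0.05 (SE), adjusted p = 1.42e-05, while RPL26 was listed at a like level. The level of RPL26 is uncertain, since it overlaps another listed gene on the same strand and its pseudogenes held 33.3% of its own fragments. The log2 ratio of RPL26L1 over RPL26 changed by 0.19 with overlap between the groups (exact p = 0.2). RPL7L1, a protein of ribosome assembly, had 23.0, 23.2 and 23.4 FPKM in CTR and 31.3, 33.9 and 32.5 FPKM in miR-8485, with log2 fold change 0.49 ± 0.04 (SE), adjusted p = 8.54e-05, beside RPL7 with 596, 533 and 533 FPKM in CTR and 727, 706 and 703 FPKM in miR-8485, and the log2 ratio changed by 0.12 with overlap (exact p = 0.3). All 4 paralogs outside the rule were called higher, where 29.1% of all genes tested were. With 3 libraries a group no ratio could have passed a threshold of 0.05, so the pairs were compared by their values.

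**Figure D3:**
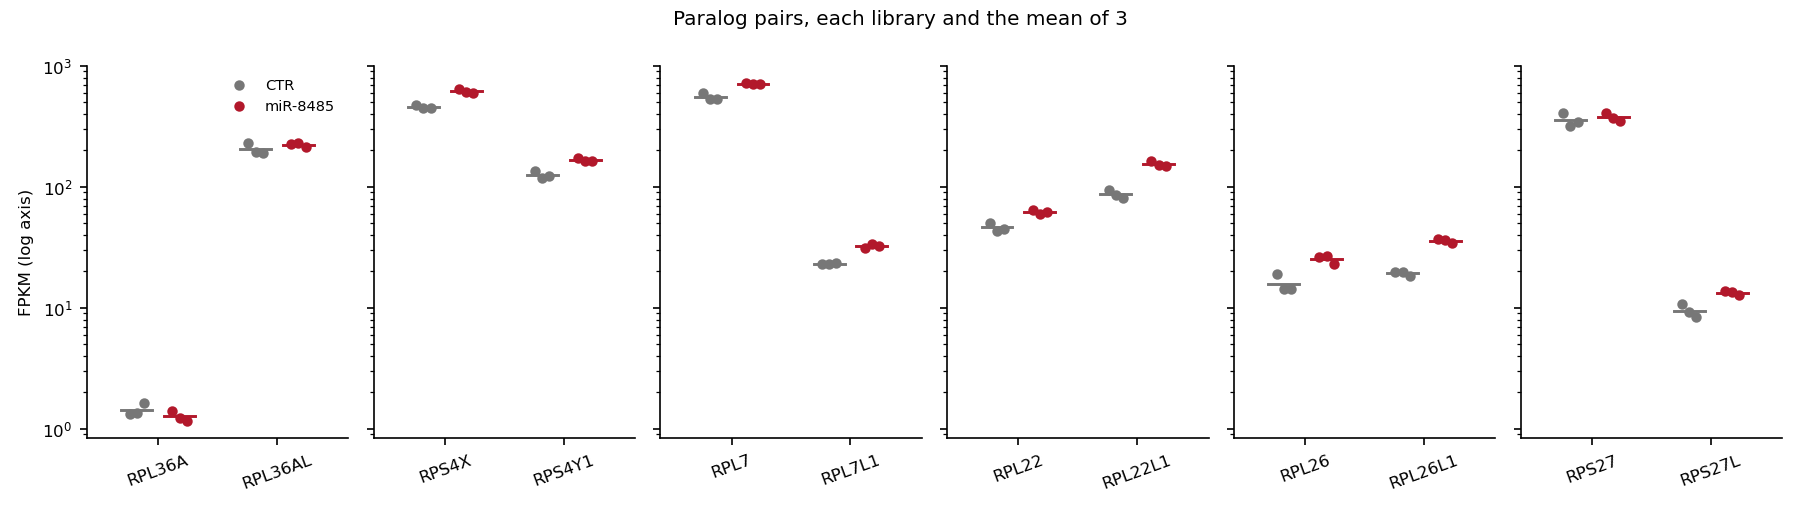
FPKM on a log axis of the paralog pairs in which both genes reached a mean of 1 FPKM, with grey points for the 3 CTR and red points for the 3 miR-8485 libraries and a line at the mean of each group. RPL22L1 lies above RPL22 in every library and further above it in miR-8485, and RPL36A lies near 1 FPKM.

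Members moved together, so the bases around their start sites were read from RefSeq promoters (GRCh38.p14), where 66 of the 83 genes had an entry. In 64 of the 66 the start agreed to the base with the GENCODE transcript. In RPL6 and RPS29 the RefSeq start lay 320 and 12330 bases from the GENCODE start. The windows shown run from 30 bases before the start to 20 bases from it, in the direction of the gene, and the capitals mark the unbroken run of pyrimidines from the first transcribed base. The first 4 belong to the genes with the largest rise, the next 4 to genes not called, and the last 3 to the longest run and to the X and Y copies of RPS4.
RPL11, chr1:23691776-23691825, plus strand: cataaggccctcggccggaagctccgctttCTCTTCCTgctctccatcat
RPS28, chr19:8321466-8321515, plus strand: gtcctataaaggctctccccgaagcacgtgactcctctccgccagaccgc
RPL28, chr19:55385902-55385951, plus strand: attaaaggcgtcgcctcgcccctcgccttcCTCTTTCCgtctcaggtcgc
RPL13A, chr19:49487578-49487627, plus strand: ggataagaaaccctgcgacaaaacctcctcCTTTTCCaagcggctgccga
RPS27, chr1:153990732-153990781, plus strand: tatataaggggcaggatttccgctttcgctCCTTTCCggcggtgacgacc
RPL38, chr17:74203648-74203697, plus strand: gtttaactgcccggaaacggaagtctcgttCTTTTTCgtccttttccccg
RPL21, chr13:27251528-27251577, plus strand: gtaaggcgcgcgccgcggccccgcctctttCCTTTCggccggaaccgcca
RPL36AL, chr14:49620607-49620656, minus strand: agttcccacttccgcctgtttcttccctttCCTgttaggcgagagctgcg
RPL39, chrX:119791611-119791660, minus strand: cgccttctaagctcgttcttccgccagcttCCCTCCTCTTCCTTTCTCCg
RPS4X, chrX:72277229-72277278, minus strand: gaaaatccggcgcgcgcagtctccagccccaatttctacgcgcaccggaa
RPS4Y1, chrY:2841572-2841621, plus strand: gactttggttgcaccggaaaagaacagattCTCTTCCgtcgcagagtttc

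A C at the start with at least 4 pyrimidines after it, read on the strand of the gene, was found in 47 of the 66 members (71.2%), against 706 of 14873 protein-coding promoters in the table (4.75%). RPL11, RPL28 and RPL13A had it with runs of 8, 8 and 7 bases. So had RPS27, RPL38, RPL21, RPS10 and RPL36A, which were not called, with 7, 7, 6, 7 and 10. RPS28, with the second largest rise, had a run of 0 at the RefSeq start, and RPS4X likewise, while RPS4Y1 had 7. In RPS28, however, a run of pyrimidines that opens with a C begins at the very next base. RPL10A and RPL4, also with a run of 0, have pyrimidine runs a few bases further in. The 47 tested members with the motif at that base, of which 42 were called higher, had a median log2 fold change of 0.47. The 17 without it there, RPL6 and RPS29 with their distant starts among them, had 0.44, and 16 of the 17 were called higher. Of all members tested 91.1% were called higher. The Spearman correlation between run length and log2 fold change was 0.08 across the 64 tested members with an entry, RPL6 and RPS29 included. These values depend on the exact base annotated as the start, so they do not show whether the motif bears on the rise.

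**Figure D4:**
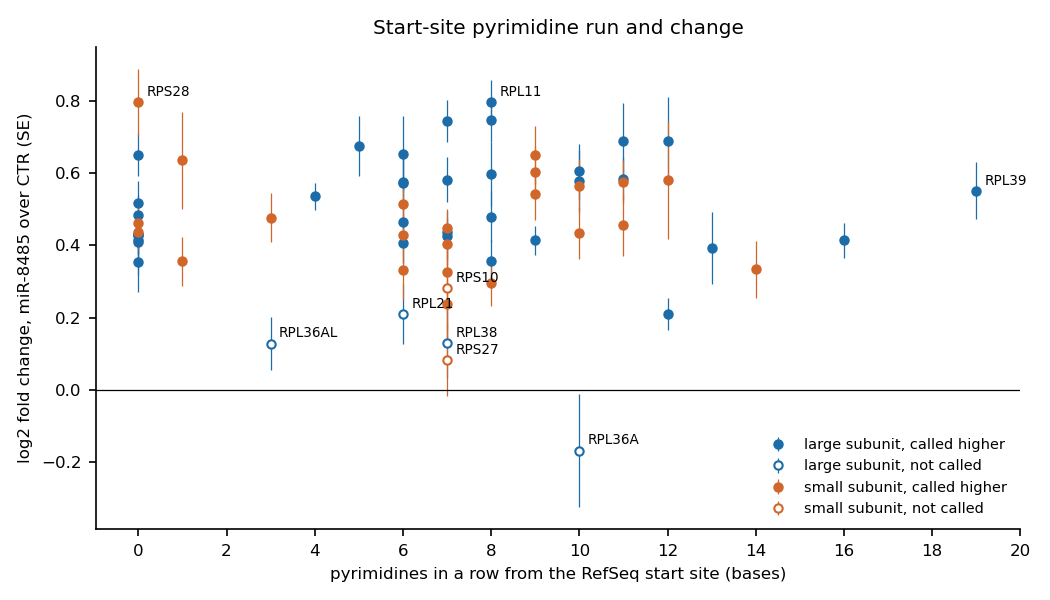
Length in bases of the pyrimidine run from the RefSeq start (x axis) and log2 fold change with its standard error (y axis) for the 64 tested members with a promoter entry, coloured by subunit, with open points for genes not called. Most points lie between 0.2 and 0.8 at short and at long runs, and RPL39 has the longest run with 19 bases.

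Among the tested genes outside the set, 453 had the same start and 185 of these were called higher (40.8%) and 97 lower (21.4%), where 26.8% and 34.5% of the 8044 without it were. The hexamer CTTCCG, typical of ETS factor sites, was read on either strand in the 300 bases of each promoter. It occurred in 42 of the 66 members (63.6%), in 26.6% of all promoters and in 36.0% of those of tested genes. It can share letters with the pyrimidine run at the start. The 41 tested members with it had a median log2 fold change of 0.52 and the 23 without it 0.43. Among the tested genes outside the set, 28.8% of the 3040 with it were called higher and 31.6% lower. Of the 5457 without it, 26.9% were called higher and 35.1% lower. TATAAA between 40 and 20 bases before the start, on the strand of the gene, was present in 3 of the 66 (4.55%, against 3.59% of all promoters).

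Words that pair with the seed of the mimic were less frequent in the members than among all genes, in shorter 3′ UTRs. The 3′ UTRs of their canonical transcripts had a median of 136 bases, against 1284 bases for all protein-coding genes tested, and TGTGTGT, the word complementary to bases 2 to 8 of the mimic, occurred in 12 of the 79 (15.2%) against 28.8% of the 10689 genes. All 12 were called higher, as were 91.1% of the 79 members and 29.1% of all genes tested. The log2 fold changes of the 12 ran from 0.30 in RPS16 to 0.80 in RPL11 with a median of 0.49, beside 0.46 for the 67 members without the word. RPL37 held the most copies with 5 and had 54.3, 45.0 and 44.9 FPKM in CTR and 71.2, 69.5 and 65.4 FPKM in miR-8485, with log2 fold change 0.52 ± 0.08 (SE), adjusted p = 0.00103. RPL14 held 4 copies and had 77.8, 69.3 and 75.2 FPKM in CTR and 101, 99.9 and 94.0 FPKM in miR-8485, with log2 fold change 0.41 ± 0.06 (SE), adjusted p = 5.57e-04. In neither gene did the groups overlap. The copies were counted in canonical 3′ UTRs of 7242 bases for RPL37 and 6355 bases for RPL14. Whether the mRNAs of these cells carry UTRs of that length was not tested. Across the 79 genes the Spearman correlation of the log2 fold change was 0.04 with 3′ UTR length, 0.01 with gene length and 0.21 with GC content, where over all genes tested it was -0.21, -0.21 and 0.18.

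Processed pseudogenes of these genes share long stretches of their sequence, so fragments can be placed on either. Of 1132 listed pseudogenes named after a member, 431 had at least 1 fragment, and together they took 0.31 ± 0.026% of the fragments in CTR and 0.44 ± 0.013% in miR-8485 (SD, n = 3 each). For the median member they held 0.284% as many fragments as the gene itself, but for 8 members more than 10%. The pseudogenes of RPS28 held 253% of its own fragments, those of RPS10 149%, those of RPL9 48.6%, those of RPL26 33.3% and those of RPL39 25.7%, so the levels of these genes are uncertain. With the fragments of the pseudogenes added, 73 members were called higher, the log2 fold change of RPS28 was 0.68 in place of 0.80, and that of RPS10 was 0.79 (adjusted p = 3.32e-04), which passed the test. Listed on their own, RPS2P5 (0.72, adjusted p = 1.18e-04), RPS28P7 (0.63, adjusted p = 2.94e-04) and RPL9P9 (0.39, adjusted p = 0.00364) were called higher, as their parent genes were.

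Genes that work beside the ribosomal proteins were counted in lists taken from textbook knowledge. FAU and RACK1 encode components of the small subunit that the naming rule does not take, and both were called higher. FAU had 173, 139 and 149 FPKM in CTR and 231, 201 and 203 FPKM in miR-8485, with log2 fold change 0.47 ± 0.09 (SE), adjusted p = 0.00335. RACK1 changed by 0.16, adjusted p = 0.00697, and with TPM its log2 fold change was 0.05 with an adjusted p of 0.463. Of 16 other TOP mRNAs, which encode mostly translation factors, 14 were tested, 10 were called higher and 0 lower (median 0.34), beside 29.1% and 30.5% of all genes tested, while EEF1G was listed at 0 and VIM lay below the filter. At an unadjusted p under 0.05 0 were lower as well, and voom called 13 higher and 0 lower, while with TPM 7 were higher and 1 lower. NPM1, a nucleolar histone chaperone, was the one gene with a value below 0 (-0.07, adjusted p = 0.253). EIF3F had 18.7, 18.7 and 18.9 FPKM in CTR and 35.3, 34.6 and 35.1 FPKM in miR-8485, with log2 fold change 0.89 ± 0.04 (SE), adjusted p = 3.86e-06, and the elongation factor EEF2 had 818, 916 and 919 FPKM in CTR and 1409.6, 1432 and 1456 FPKM in miR-8485, with log2 fold change 0.70 ± 0.06 (SE), adjusted p = 4.68e-05. For both genes the groups did not overlap, and under quantile normalization EEF2 changed by 0.39.

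Ribosome biogenesis genes did not move as one. Of 38 tested, 16 were called higher and 9 lower (median 0.08), beside 29.1% and 30.5% of all genes tested. With TPM 10 were higher and 13 lower, where 21.2% and 38.2% of all genes were. NOLC1, a nucleolar partner of snoRNPs, and NHP2, of the H/ACA snoRNPs, rose most (0.63, adjusted p = 2.88e-05 and 0.58, adjusted p = 1.01e-04), and TSR1 and LTV1, which mature the small subunit, fell most (-0.54, adjusted p = 7.58e-05 and -0.32, adjusted p = 0.0192). Without miR-8485 replicate 2 the change of LTV1 was -0.28 with an adjusted p of 0.0631. LTV1 also lost its call with the GC content trend removed (-0.23, adjusted p = 0.0595) and with no filter (adjusted p = 0.0590). The list for TOP control held 10 genes, namely MTOR, LARP1 and genes of mTOR signalling. Of these, 3 were called higher and 3 lower, close to the shares of 29.1% and 30.5% over all genes tested. Under TPM 3 were higher and 5 lower. The S6 kinase genes RPS6KB1 and RPS6KB2 fell (-0.60, adjusted p = 4.50e-05 and -0.48, adjusted p = 3.48e-04), while EIF4EBP2 and EIF4EBP1, which encode repressors of cap-dependent translation, rose (0.36, adjusted p = 0.00101 and 0.30, adjusted p = 0.0031). With the trend against gene length removed the change of EIF4EBP1 was 0.07 with an adjusted p of 0.147, and that of NHP2 was 0.38.

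Mitochondrial ribosomal protein genes, which encode the separate ribosome of that organelle, were mixed in direction. Of 77 tested, 33 were called higher and 11 lower (median 0.14, against 0.46 for the cytosolic set), beside 29.1% and 30.5% of all genes tested. The split was 21 and 19 with TPM, where 21.2% and 38.2% of all genes were called, and 22 and 20 with the gene length trend removed, where 29.3% and 29.99% were. MRPL41 and MRPL53 rose most (0.76, adjusted p = 5.04e-04 and 0.72, adjusted p = 0.0454), and MRPS27 and MRPL39 fell most (-1.24, adjusted p = 5.82e-06 and -0.41, adjusted p = 5.64e-04). MRPL53 was listed at 2.18 ± 0.735 FPKM in CTR and 3.55 ± 0.681 FPKM in miR-8485 (SD, n = 3 each), and the MRPL53 log2 fold change lost its call in 4 of the 6 fits that left out a library (adjusted p = 0.0536 to 0.132). In those fits it was 0.82, 0.42, 0.68 and 0.60, the lowest without CTR replicate 3.

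**Figure D5:**
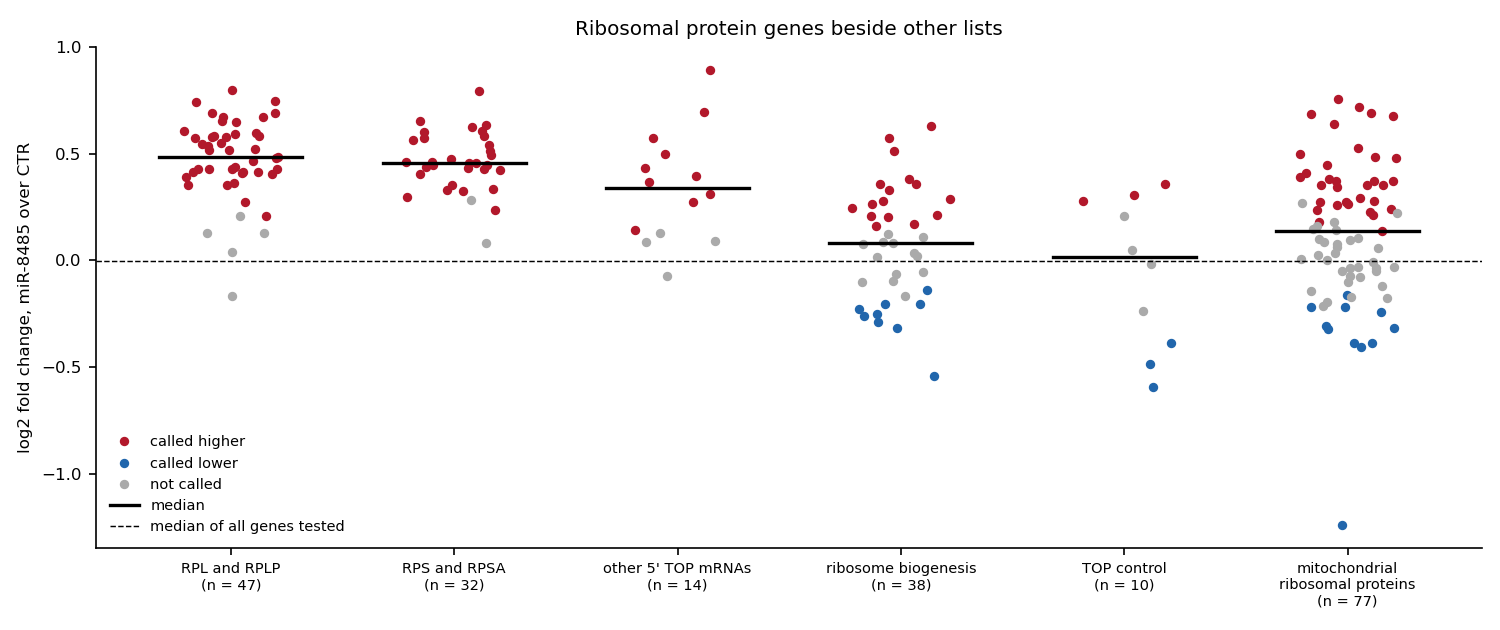
Log2 fold change (y axis) of each tested gene in the 2 subunits and 4 other lists, with red points called higher, blue called lower and grey not called, a black line at the median of each list and a dashed line at the median of all genes tested. Both subunits lie almost entirely above 0.2 with medians of 0.48 and 0.46, while ribosome biogenesis, TOP control and mitochondrial ribosomal protein genes spread to both sides of 0.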

How the data were processed

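RNA-seq had been performed on 3 CTR and 3 miR-8485 libraries of HCT116 cells. After trimming with fastp, the authors aligned the reads with HISAT2 (2.0.5) against hg38, counted fragments with featureCounts (1.5.0-p3, per the submitters' processing notes) and deposited FPKM values, with no further scaling between libraries. The annotation release and the strand setting are not given in the sources used here. The authors ran DESeq2 on counts, which are not used here. Divided by the value of a single fragment, 100% of the nonzero FPKM of genes with few fragments came out whole (tolerance 0.05). Genes with more fragments, most members included, were outside this check and were rounded in the same way, which gave the fragments per gene. Total fragments on listed genes were 17473874 to 18480047, and precision follows from each gene's own fragments.

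Differential expression was tested with limma 3.58.1 (R 4.3.3), with a variance trend, two-sided, on log2(FPKM + 0.1), for the 12349 genes whose mean reached 1 FPKM, adjusted by Benjamini-Hochberg, with a threshold of 0.05. A fold change on this scale understates that of low genes. The 26967 genes at 0 in all libraries were left out. Other steps used Python 3.11.15, numpy 2.4.6, pandas 2.3.3, scipy 1.17.1, biopython 1.88 and matplotlib 3.10.9. The fit was tested on simulated data whose changes were all larger than those of the members. That test therefore does not bear on calls at the smaller changes that the members showed. Paralog ratios were compared with an exact two-sided permutation test. Promoters were taken from RefSeq (the entry nearest to the start of the GENCODE 44 canonical transcript), UTRs from GENCODE 44 on GRCh38, and the mimic from the supplementary methods.

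The members and lists were chosen with earlier results of these data known. Named were the members below the filter or not called, the 8 largest and 5 smallest rises, the P stalk, 5S RNP and peptidyl transferase genes, the paralog pairs, the ribosomal parts outside the name rule, and in each other list the 2 largest changes called in each direction. A few genes that this rule takes are not reported here. Other names (RPL17, RPL37, RPL14, RPS2, RPS12, RPL9, NPM1, the pseudogenes) were chosen after their values were seen. The alternatives covered pseudocounts of 1 and 0.01, a filter at 5 FPKM and none, TPM, median-of-ratios scaling, quantile normalization, removal of trends against gene length or GC content, no variance trend, voom, the replicate number as a block, pseudogene fragments added, each library left out, and a log2 fold change of at least 0.5.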

Additional observations from a re-analysis of the deposited data

How the results depend on the processing

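The rise of the ribosomal protein genes held its direction in all alternatives: 64 to 75 were called higher and 0 lower, except that a threshold on the log2 fold change of at least 0.5 left 34. With FPKM rescaled to TPM 64 were called higher and the median log2 fold change was 0.35, where all genes tested had a median of -0.12, so that the members lay 0.46 above it. Leaving out each library in turn gave 70 to 75 called higher and medians of 0.43 to 0.53. The difference between the subunits' medians, 0.03, was 0.078 with the gene length trend removed and 0.0079 to 0.045 without each library. TPM also moved the lists: 21 mitochondrial ribosomal protein genes were higher and 19 lower, 1 other TOP mRNA was lower, 10 ribosome biogenesis genes were higher, and 5 TOP control genes were lower. With the gene length trend removed 20 mitochondrial ribosomal protein genes were lower, and with no filter 5 ribosome biogenesis genes were lower. The cause of these moves was not tested. The replicate numbers did not pair the libraries (correlations of same-numbered deviations 0.07, 0.03 and -0.06), and with the replicate number as a block 73 members were called higher. Under quantile normalization RPL7 (0.08, adjusted p = 0.156) and RPS3A (0.08, adjusted p = 0.295) were not called. Depth limits RPL3L, RPS10 and RPL36A, with 5 to 118 fragments a library.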
